A study of Mus musculus with 6 samples.

Results

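The proteasome is the barrel-shaped protease that destroys proteins tagged with ubiquitin, and its constitutive subunits are the ones that nearly all cells make. Those genes were followed here in RAW264.7, an immortalised line of mouse macrophages that moves towards the osteoclast, the cell that resorbs bone, when it is given the cytokine RANKL. The genes are the protein-coding genes of the mouse annotation GENCODE M21 whose symbols start with Psma, Psmb, Psmc or Psmd and a number, without the inducible subunits Psmb8, Psmb9 and Psmb10. This symbol rule gives 37 of the 55536 gene IDs measured, and 36 of the 37 were among the 11120 genes with enough signal to test. It also takes in Psmc3ip, which encodes a meiotic recombination factor and no proteasome subunit, and which is therefore given by itself.

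Total RNA was sequenced in bulk from 3 libraries of RAW264.7 cells given RANKL and etelcalcetide and from 3 libraries of cells given RANKL alone. The shared RANKL dose was 50 ng/mL, and the first group had 4 µM of etelcalcetide added, a peptide agonist of the calcium-sensing receptor. Cells without RANKL were not analysed here, and the values therefore do not show what RANKL itself did to the proteasome genes. The design text of the study states 5 days of exposure, whereas the sample labels state 5, 6 and 7 days for replicates 1, 2 and 3 of each group. Separate cultures are not stated for the replicates, so p-values measure only how far these samples spread, which can be technical variation. In bulk samples, fewer cells of a type and less RNA per cell cannot be told apart.

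The libraries held 13742913 to 16264432 gene-assigned reads with etelcalcetide and 14530043 to 15877596 with RANKL alone. All 6 macrophage markers were measured, with sums of 2798 to 2958 FPKM with etelcalcetide and 2510 to 2671 FPKM with RANKL alone, where FPKM is the number of reads corrected for exon length and library size. Of 8 osteoclast markers 7 were tested, and their sums were 181 to 197 FPKM with etelcalcetide and 347 to 481 FPKM with RANKL alone. Each marker of fibroblasts and osteoblasts, lymphocytes, epithelium and endothelium, and red cells stayed under 1 FPKM in every library, and the lymphocyte genes Cd3e and Ms4a1 and both haemoglobin genes had no read. The osteoclast markers thus differed between the same groups as the proteasome genes, and their part in the values below was not tested.

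The barrel, or core particle, is a stack of rings: outer alpha rings that gate the entry and inner beta rings that hold the cutting sites. A regulatory particle caps it, with a base of ATPases that unfold the substrate and a lid that removes ubiquitin. Osteoclast formation by RANKL passes through NF-κB, whose inhibitor IκB is a textbook substrate of the proteasome, and cells that lose proteasome activity raise the subunit genes together through the transcription factor NFE2L1. In the text, a gene rose or fell where limma, fitted over all 11120 tested genes, gave a Benjamini-Hochberg adjusted p under 0.05, and log2 fold changes are RANKL + etelcalcetide over RANKL with their standard errors (SE). Levels are scaled FPKM, the deposited FPKM divided by a scaling factor for each library.

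The constitutive proteasome genes did not move as a block. With etelcalcetide, 13 of the 36 tested genes fell, 5 rose and 18 did not pass the test. Such calls were common in these libraries, since 53% of all tested genes passed, 27% of them lower and 26% higher, so the share of 50.0% among the proteasome genes is near the background. The split by direction was less even, with 36.1% lower and 13.9% higher. The count of 5 that rose was 2 without etelcalcetide replicate 1 and 1 without etelcalcetide replicate 2. Changes were small: log2 fold changes ran between -0.59 for Psmd10 and 0.34 for Psmb4, with a median of -0.08 against -0.01 over all tested genes. Only 11 of the 36 passed with a change of at least 1.2-fold, 10 lower and 1 higher, or 30.6% of them, against 45.2% of all tested genes, 22.9% lower and 22.3% higher. The values of the 3 libraries of each group did not overlap for 15 genes that were lower and 6 that were higher with etelcalcetide, or 58.3%, against 61.9% of all tested genes, 31.2% lower and 30.7% higher. The split depends on the scaling: with library totals alone 11 of the 36 fell and 8 rose, against 20.4% lower and 32% higher over all tested genes. Reads of all 37 genes together made up 0.513% to 0.536% of each library with etelcalcetide and 0.5003% to 0.516% of each library with RANKL alone.

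**Figure D1:**
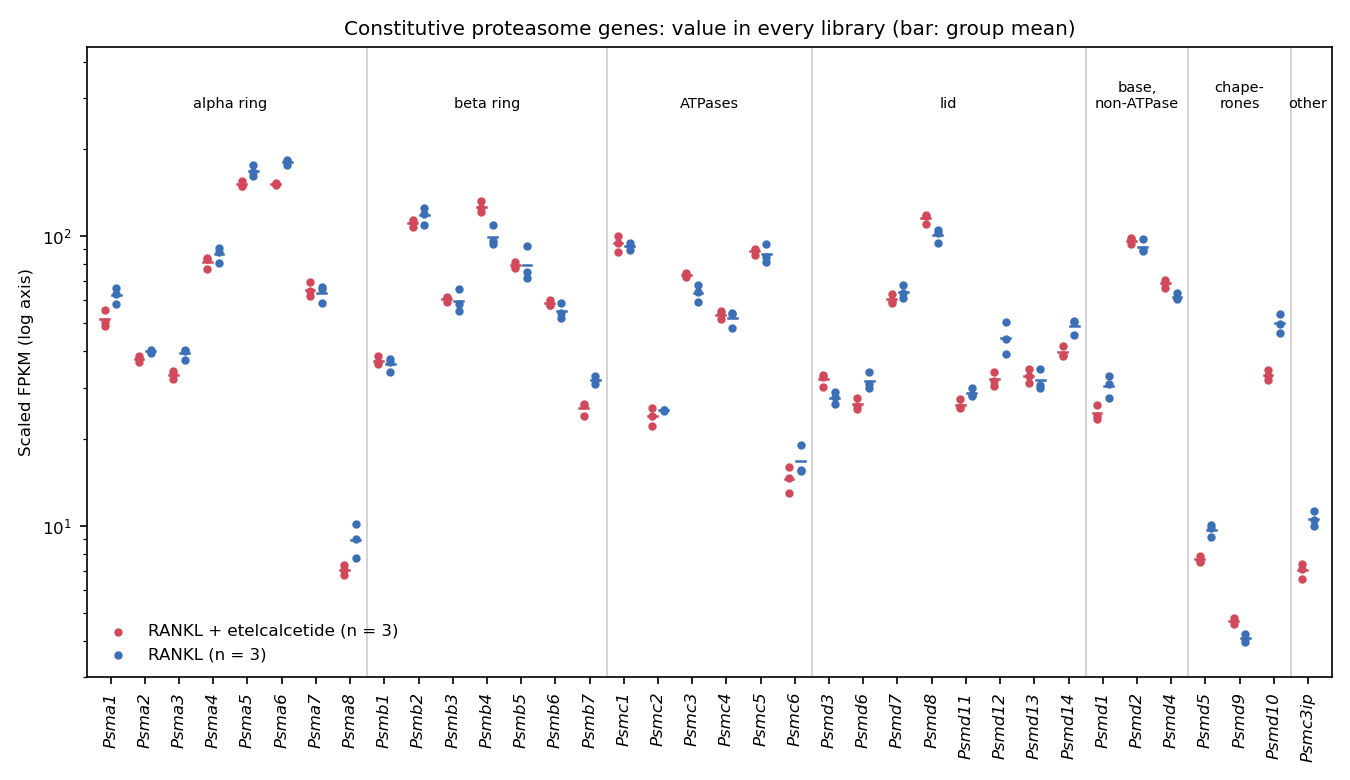
Scaled FPKM (log axis) of the 36 tested genes in each of the 3 libraries with RANKL + etelcalcetide and the 3 libraries with RANKL alone, ordered by place in the particle, with a bar at each group mean. Psmd10 (33.1 against 50.0 on average) shows a gap between the groups, whereas Psmb5 (79.3 against 79.7) and most ATPases overlap.

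Textbook routes to coordinated control of these genes run through short promoter elements, so the promoter windows were read for them. RefSeq windows on GRCm38.p6, from 250 bases before to 50 bases after the start, were at hand for 30 of the 37 genes. The core of the antioxidant response element, TGACNNNGC, which is bound by factors of the NFE2L family, was found on either strand in 5 of the 30, or 16.7%, against 13.99% of all genes with a window. The sites are shown because NFE2L1 is the known driver of these genes, with the element in capitals.
Psmb5: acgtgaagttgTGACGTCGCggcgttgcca
Psmb6: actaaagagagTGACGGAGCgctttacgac
Psmd9: tatctagccggTGACCCCGCccacttccaa
Psmc6: gagcaatgccTGACTTAGCtactggctggc
Psmd12: gtctgaggggggcaaatgTGACACAGCaga
They lie at chr14:54618024-54618053 (minus strand) for Psmb5, chr11:70525337-70525366 (plus) for Psmb6, chr5:123228148-123228177 (plus) for Psmd9, chr14:45329586-45329615 (minus) for Psmc6 and chr11:107479278-107479307 (minus) for Psmd12. The element ends 38, 0, 22, 218 and 238 bases before the start in that order. Of these 5 genes 1 fell (Psmd12) and 4 did not pass the test.

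A second element was more frequent in these windows. The ETS core CCGGAAG stood on either strand in 11 of the 30 genes, or 36.7%, against 9.93% of all genes, and the CCAAT box in 13 of 30, or 43.3%, against 41.1%. Both counts include Psmc3ip. The comparison takes all 27025 genes with a window, tested here or not, and was not matched for base composition. No match of 1 of these 3 motifs shared a base with a match of another. The site that ends nearest before the start is shown for 4 genes with different calls, Psmd12 and Psmd6, which fell, Psmc1, which did not pass the test, and Psmd4, which rose.
Psmd12: cgtcactcgcaCCGGAAGtcgcccgctcat
Psmd6: ccagagacgcgaCCGGAAGtcagactggcg
Psmc1: aatcgccaccgCCGGAAGtgcatccaccaa
Psmd4: cttacagctgttCCGGAAGctgctgcgaag
They are on the minus strand at chr11:107479499-107479528, chr14:14120973-14121002, chr12:100110162-100110191 and chr3:95042722-95042751, with the ETS core in capitals. The core was present in 4 of 11 genes that fell, 1 of 3 that rose and 6 of 15 that did not pass the test. A match is a string of letters and not a measured binding site.

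The alpha ring leaned one way. Of its 8 genes 5 fell with etelcalcetide (Psma1, Psma3, Psma5, Psma6 and Psma8), 0 rose and 3 did not pass the test (0 rose at an unadjusted p under 0.05 as well), with a median log2 fold change of -0.20. The share that fell was 62.5%, against 27% of all tested genes. Without RANKL replicate 2, or without etelcalcetide replicate 2, 3 of the 8 fell. Its geometric mean was 54.1, 50.8 and 51.8 scaled FPKM in the etelcalcetide libraries and 59.9, 59.9 and 57.1 in the RANKL libraries. The ranges of the groups do not overlap, with 86.1% to 91.8% of the RANKL mean in the etelcalcetide libraries. After a GC adjustment, in which each library's trend on transcript GC content was removed, 2 of the 8 genes were lower. That share of 25% is near the 26% of all tested genes, and the median log2 fold change of the ring was then -0.05.

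Psma6, whose product is part of the gated entry ring, is among the abundant genes of the class. It had 152, 153 and 150.1 scaled FPKM with etelcalcetide and 184, 181 and 176 with RANKL alone. The groups stand clear of each other, and the log2 fold change was -0.25 (SE 0.0452, adjusted p = 0.00168). Psma1 had 55.7, 49.0 and 50.4 scaled FPKM with etelcalcetide, against 66.0, 63.3 and 58.3 with RANKL alone, a log2 fold change of -0.28 (SE 0.0674, adjusted p = 0.00804). All 3 etelcalcetide libraries were below all 3 RANKL libraries, by the least between etelcalcetide replicate 1 and RANKL replicate 3.

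Psma8 encodes an alpha subunit known from mouse testis, where it takes the place of Psma7 in the proteasome of male germ cells. It was measured at a low level here, 7.31, 6.77 and 7.02 scaled FPKM with etelcalcetide and 10.1, 9.01 and 7.73 with RANKL alone, and no near-identical copy of it was found in the annotation. The log2 fold change was -0.34 (SE 0.0997, adjusted p = 0.0191), and without RANKL replicate 2 or etelcalcetide replicate 2 it did not pass the test (adjusted p = 0.0554 and 0.0621). Psma7 itself had 69.3, 62.0 and 64.5 scaled FPKM with etelcalcetide against 58.9, 66.6 and 65.8 with RANKL alone, and the groups overlap. Psma3 and Psma5 had log2 fold changes of -0.24 (adjusted p = 0.00496) and -0.15 (adjusted p = 0.0354). The call of Psma5 was lost without RANKL replicate 2 or 3 or etelcalcetide replicate 2 or 3 (adjusted p = 0.0711 to 0.0901).

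In the beta ring most genes stayed within the spread of the replicates in the fit reported. Of 7 tested genes 1 rose (Psmb4), 1 fell (Psmb7) and 5 did not pass the test, with a median log2 fold change of 0.03. The share that passed was 28.6%, against 53% of all tested genes. After the GC adjustment 2 of the 7 were lower and 2 higher, or 57.1%, against 50.8% of all tested genes. The geometric mean of the ring was 62.6, 64.6 and 60.7 scaled FPKM with etelcalcetide and 58.2, 61.4 and 66.5 with RANKL alone, and the etelcalcetide values lie inside the RANKL range.

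Psmb4 encodes a structural subunit with no cutting site. It had 125, 133 and 121 scaled FPKM with etelcalcetide, against 96.0, 93.9 and 109 with RANKL alone. Every etelcalcetide library was higher, with a log2 fold change of 0.34 (SE 0.0670, adjusted p = 0.00251), the largest rise among the 36 genes.

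The catalytic subunits gave different values. Psmb5, the chymotrypsin-like site and the target of the drug bortezomib, had 78.7, 81.7 and 77.6 scaled FPKM with etelcalcetide and 71.5, 74.9 and 92.5 with RANKL alone. The groups overlap because RANKL replicate 3 is above the rest, and the log2 fold change of 0.0028 had a 95% interval of -0.20 to 0.20 (adjusted p = 0.981). Psmb6, the caspase-like site, had 58.1, 60.4 and 58.0 scaled FPKM with etelcalcetide and 52.0, 54.3 and 59.0 with RANKL alone, a log2 fold change of 0.10 (SE 0.0576, adjusted p = 0.185). It passed the test without RANKL replicate 3, at a log2 fold change of 0.15 (adjusted p = 0.0342). Psmb7, the trypsin-like site, had 26.2, 26.4 and 24.0 scaled FPKM with etelcalcetide, against 31.0, 31.8 and 32.9 with RANKL alone. The groups do not overlap for Psmb7, and it fell by 0.32 on the log2 scale (SE 0.0575, adjusted p = 0.00161). Its exons share 11.8% of their length with the neighbour Nek6, and the sources used here do not say whether the counting used strand.

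Psmb11, the beta subunit of the thymus proteasome, did not reach the minimum for testing. It had 0, 1 and 1 reads in the etelcalcetide libraries and 0, 0 and 1 reads in the RANKL libraries, where 3 reads, the limit that a count of 0 allows, are worth 0.0385 to 0.0456 FPKM.

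The inducible counterparts of the catalytic subunits are the immunosubunits, which replace them in newly built core particles of cells exposed to interferon. All 3 rose with etelcalcetide. Psmb8, which replaces Psmb5, had 15.4, 19.2 and 16.6 scaled FPKM with etelcalcetide and 6.15, 6.32 and 6.14 with RANKL alone (log2 fold change 1.44, SE 0.0850, adjusted p = 3.05e-06). Psmb9, which replaces Psmb6, had 8.91, 9.49 and 8.37 scaled FPKM, against 3.79, 2.65 and 3.25 with RANKL alone (log2 fold change 1.45, SE 0.125, adjusted p = 2.61e-05). For Psmb10, which replaces Psmb7, the values were 20.5, 20.7 and 20.6 scaled FPKM with etelcalcetide and 13.4, 13.9 and 16.4 with RANKL alone (log2 fold change 0.50, SE 0.0782, adjusted p = 0.00075). After the GC adjustment, the log2 fold changes were 1.27 for Psmb8, 1.29 for Psmb9 and 0.32 for Psmb10, with adjusted p = 7.26e-06, 8.29e-05 and 0.00147.

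Set against the constitutive subunit of the same library, which needs no scaling between libraries, each immunosubunit was higher with etelcalcetide. The ratio Psmb8/Psmb5 was 0.196, 0.235 and 0.214 with etelcalcetide and 0.0860, 0.0843 and 0.0664 with RANKL alone, 2.74-fold apart. Psmb9/Psmb6 was 0.153, 0.157 and 0.144 with etelcalcetide, against 0.0729, 0.0489 and 0.0551, 2.61-fold apart. Psmb10/Psmb7 was 0.783, 0.783 and 0.859, against 0.433, 0.436 and 0.498, 1.78-fold apart. In none of the 3 ratios do the groups overlap, and the two-sided exact permutation test gave p = 0.1 for each (0.1 after Benjamini-Hochberg adjustment over the 3), the smallest value that 3 against 3 libraries allow. The ratios are not adjusted for GC content, which is 56.5% for Psmb10 and 48.7% for Psmb7. They are of RNA per kilobase of merged exon and do not measure assembled particles. At those ratios, the constitutive gene of each pair was still the more abundant RNA per kilobase in all 6 libraries. The level of a ratio depends on the length used. Per kilobase of the principal transcript Psmb10 averaged 26.8 and Psmb7 75.3 with etelcalcetide, against 18.9 and 94.1 with RANKL alone.

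**Figure D2:**
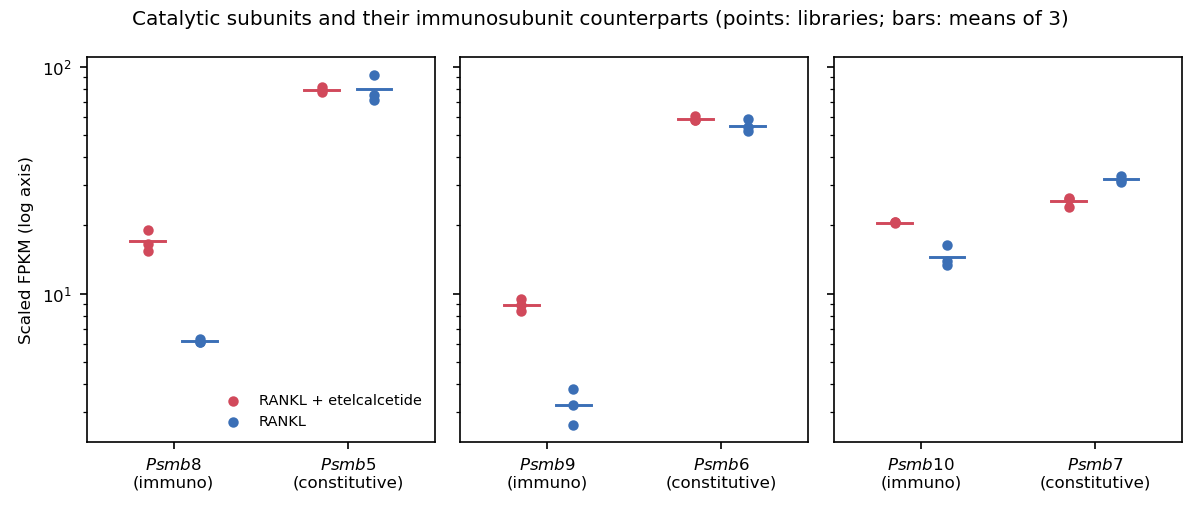
Scaled FPKM (log axis) of each immunosubunit and the constitutive subunit it replaces, with 1 point per library and bars at the means of 3. Psmb8 and Psmb9 lie apart between the groups while Psmb5 and Psmb6 overlap, and in the third pair Psmb10 is higher and Psmb7 lower with RANKL + etelcalcetide.

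The ATPase ring, which unfolds the substrate and threads it into the barrel, stayed mostly within the replicate spread. Of its 6 genes 1 rose (Psmc3), 0 fell and 5 did not pass the test (1 higher and 0 lower at an unadjusted p under 0.05), with a median log2 fold change of 0.03. That is 16.7% passing, against 53% of all tested genes. After the GC adjustment 0 of the 6 passed, against 50.8% of all tested genes. Geometric means were 49.1, 48.4 and 44.9 scaled FPKM with etelcalcetide and 46.7, 47.1 and 47.7 with RANKL alone, so the groups overlap. Psmc3 had 74.0, 74.6 and 72.0 scaled FPKM with etelcalcetide, against 59.1, 68.1 and 64.3 with RANKL alone. Its log2 fold change of 0.21 (SE 0.0595, adjusted p = 0.0169) did not pass the test without etelcalcetide replicate 2 (adjusted p = 0.0550). Psmc6 had 15.98, 14.6 and 13.005 scaled FPKM with etelcalcetide and 19.03, 15.6 and 15.5 with RANKL alone, and Psmc2 had 25.4, 23.9 and 22.2 against 25.2, 25.05 and 24.9. Both overlap between the groups, at log2 fold changes of -0.20 (adjusted p = 0.132) and -0.07 (adjusted p = 0.348). Psmc6 was lower with etelcalcetide in each of the 3 pairs of libraries that share a replicate number and labelled day, and with the number as a block it passed the test as lower (adjusted p = 0.0428). For Psmc1, Psmc4 and Psmc5 the 95% intervals of the log2 fold change lay between -0.10 and 0.18.

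In the lid, 3 of 8 genes fell (Psmd6, Psmd12 and Psmd14), 2 rose (Psmd3 and Psmd8) and 3 did not pass the test, with a median log2 fold change of -0.11. These shares, 37.5% lower and 25% higher, are near the 27% and 26% of all tested genes, and after the GC adjustment 2 lid genes were lower and 0 higher. Its geometric mean was 41.7, 39.5 and 38.6 scaled FPKM with etelcalcetide and 42.9, 43.1 and 42.4 with RANKL alone. As in the alpha ring, these ranges do not overlap, with 90.2% to 97.5% of the RANKL mean in the etelcalcetide libraries.

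Psmd14 is the deubiquitinase of the lid, which cuts ubiquitin chains off the substrate. It had 41.8, 39.0 and 38.5 scaled FPKM with etelcalcetide, against 50.9, 50.5 and 45.7 with RANKL alone (log2 fold change -0.30, SE 0.0609, adjusted p = 0.00316). The call was lost after the GC adjustment (-0.08, adjusted p = 0.169). Psmd12, a scaffold subunit of the lid, had 34.1, 30.5 and 31.6 scaled FPKM with etelcalcetide and 50.6, 44.2 and 39.2 with RANKL alone. Its groups stand apart, with the largest fall in the lid, a log2 fold change of -0.47 (SE 0.0897, adjusted p = 0.00221). Psmd6, another scaffold subunit, had 27.5, 25.4 and 25.8 scaled FPKM against 34.0, 29.9 and 30.8, a log2 fold change of -0.26 (SE 0.0641, adjusted p = 0.00766).

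In the other direction, the scaffold subunit Psmd3 had 32.7, 33.2 and 30.2 scaled FPKM with etelcalcetide, against 26.4, 27.8 and 28.9 with RANKL alone (log2 fold change 0.21, SE 0.0598, adjusted p = 0.0166). Psmd8, the most abundant lid gene, had 119, 117 and 109.9 scaled FPKM with etelcalcetide and 94.9, 103 and 105 with RANKL alone (log2 fold change 0.19, SE 0.0571, adjusted p = 0.0191). Neither pair of groups overlaps. Both calls were lost without etelcalcetide replicate 1 (adjusted p = 0.0502 for Psmd3 and 0.0559 for Psmd8) and without etelcalcetide replicate 2 (0.0684 and 0.0642).

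The base also holds subunits without ATPase activity. Psmd1, a scaffold, had 26.1, 23.5 and 23.9 scaled FPKM with etelcalcetide, against 32.8, 30.9 and 27.5 with RANKL alone, and fell by 0.31 on the log2 scale (SE 0.0752, adjusted p = 0.00801). Psmd4, a ubiquitin receptor, had 68.8, 70.8 and 66.3 scaled FPKM, against 60.7, 63.5 and 61.1, and rose by 0.15 (SE 0.0487, adjusted p = 0.0264). The rise of Psmd4 was not called without RANKL replicate 1 (adjusted p = 0.0539), etelcalcetide replicate 1 (0.0591) or etelcalcetide replicate 2 (0.113). Psmd2, the other scaffold of the base, overlapped between the groups, with 98.5, 97.5 and 93.9 scaled FPKM with etelcalcetide and 89.6, 89.1 and 97.5 with RANKL alone (log2 fold change 0.07, adjusted p = 0.286).

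The 3 chaperones that hold the ATPases while the base is built carry Psmd symbols although they leave before the particle is complete. Their geometric mean was 10.4, 10.5 and 10.8 scaled FPKM with etelcalcetide and 12.3, 12.8 and 12.5 with RANKL alone. The ranges of the groups do not overlap here either, with 83.2% to 86.5% of the RANKL mean in the etelcalcetide libraries. Psmd10, also called gankyrin and known as an oncoprotein in liver, had 33.0, 31.9 and 34.4 scaled FPKM with etelcalcetide, against 49.6, 53.8 and 46.5 with RANKL alone. This was the largest change of the 36 genes, a log2 fold change of -0.59 (SE 0.0642, adjusted p = 9.81e-05), with a gap between the groups wider than the spread within either. Psmd5 had 7.52, 7.58 and 7.90 scaled FPKM, against 9.15, 9.86 and 10.04, and its log2 fold change was -0.33 (SE 0.0682, adjusted p = 0.00330). Psmd9 went against them in value, with 4.58, 4.81 and 4.69 scaled FPKM with etelcalcetide and 4.07, 3.96 and 4.22 with RANKL alone. Its groups do not overlap, but its log2 fold change of 0.20 (SE 0.0794, adjusted p = 0.0637) did not pass the test, and 25.5% of its exon length lies over an antisense gene.

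Psmc3ip, the recombination factor that the symbol rule takes in, had 7.40, 7.11 and 6.54 scaled FPKM with etelcalcetide, against 11.3, 10.5 and 9.98 with RANKL alone. It fell by 0.58 on the log2 scale (SE 0.0776, adjusted p = 0.000313), and 21.2% of its exon length is shared with Mlx on the other strand.

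**Figure D3:**
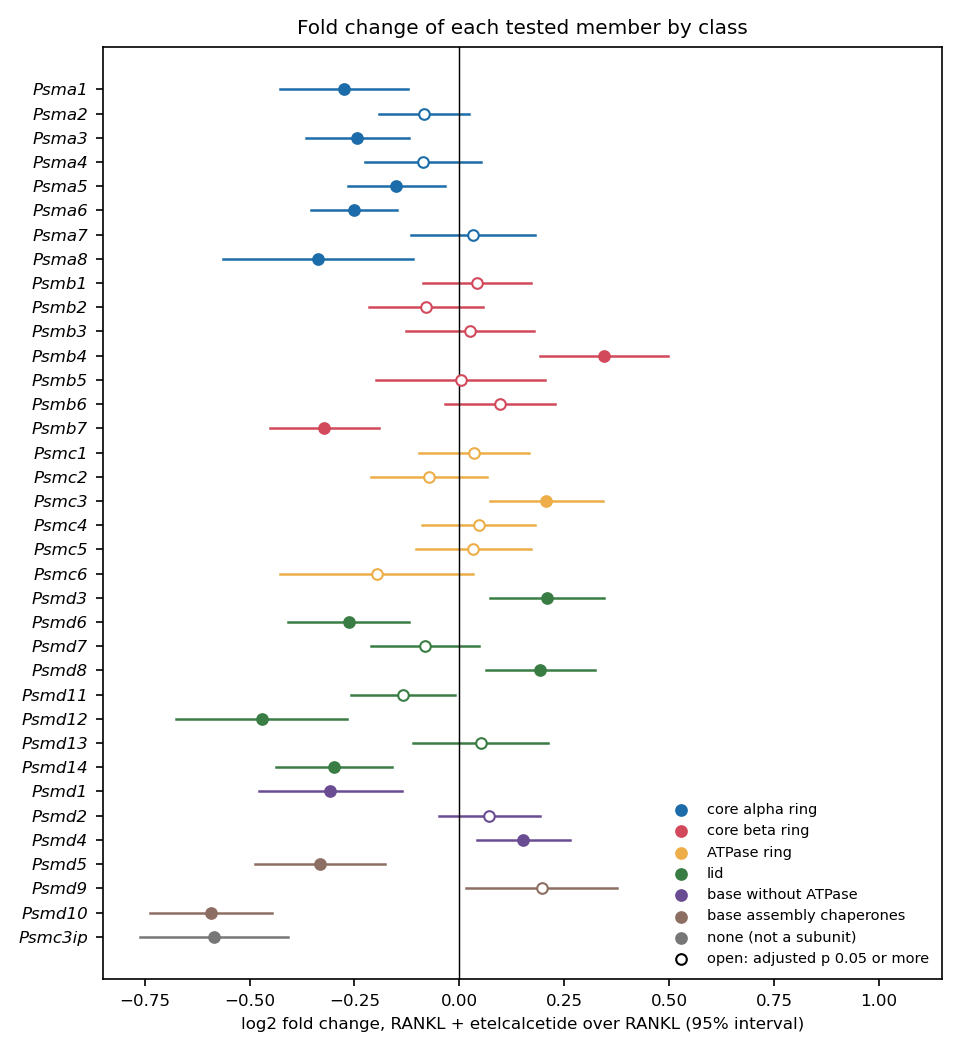
Log2 fold change of each of the 36 tested genes, RANKL + etelcalcetide over RANKL, with its 95% interval from limma, coloured by place in the particle, with filled circles for an adjusted p under 0.05. Filled circles lie left of 0 for 13 genes and right of 0 for 5, and all 5 of the alpha ring's lie left.

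Set side by side, 5 of 8 alpha genes, 1 of 7 tested beta genes, 0 of 6 ATPase genes and 3 of 8 lid genes fell. Over all tested genes 27% fell. After the GC adjustment 2 of 8 alpha, 2 of 7 beta, 0 of 6 ATPase and 2 of 8 lid genes were lower, against 26% of all tested genes. The difference between these classes was not tested in either fit. The classes also differ in base composition. The median GC content of the principal transcripts was 44.5% in the alpha ring, 52.2% in the beta ring, 50.5% among the ATPases, 48.8% in the lid and 45.1% among the base chaperones, against 50.2% over all tested genes.

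Direction followed GC content closely. All 13 genes that fell had a transcript with under 50% GC and all 5 that rose had one with more, a border chosen after the values were seen. Of the 21 tested genes under it 13 fell and 0 rose (14 and 0 at an unadjusted p under 0.05), and of the 15 above it 0 fell and 5 rose (0 and 6). Over all tested genes the same border gave 38.2% lower and 12.97% higher under it, and 16.2% lower and 38.5% higher above it. Spearman's rho between log2 fold change and GC content was 0.75 over the 36 genes and 0.38 over 11109 tested genes. These are descriptions across genes, which share the same 6 libraries and are not independent replicates. With the coding part alone rho was 0.76 over the 36 genes, and with transcript length it was -0.05.

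Base composition can be read in the letters themselves. The 60 bases in the middle of the longest coding exon are shown, read from GENCODE M21 on GRCm38, with G and C in capitals. The genes are the 2 falling and 2 rising ones with the largest log2 fold changes, with Psmc3ip left out.
Psmd10: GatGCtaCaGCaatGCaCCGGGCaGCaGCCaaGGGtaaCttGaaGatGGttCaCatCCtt
Psmd12: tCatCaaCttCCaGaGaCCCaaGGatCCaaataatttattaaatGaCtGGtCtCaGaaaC
Psmb4: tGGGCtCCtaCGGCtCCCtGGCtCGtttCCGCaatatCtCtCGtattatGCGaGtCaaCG
Psmd3: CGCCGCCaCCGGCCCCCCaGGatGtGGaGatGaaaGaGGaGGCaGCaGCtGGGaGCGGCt
They lie at chrX:140952200-140952259 (minus strand), chr11:107497597-107497656 (plus), chr3:94886514-94886573 (minus) and chr11:98682803-98682862 (plus). G and C make up 36.7% of the Psmd12 stretch, 51.7% of the Psmd10 stretch, 55% of the Psmb4 stretch and 70% of the Psmd3 stretch. Over the whole transcript the shares were 44.3% for Psmd12, 42.3% for Psmd10, 52.2% for Psmb4 and 58.3% for Psmd3, so the stretch of Psmd10 is richer in G and C than its transcript.

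**Figure D4:**
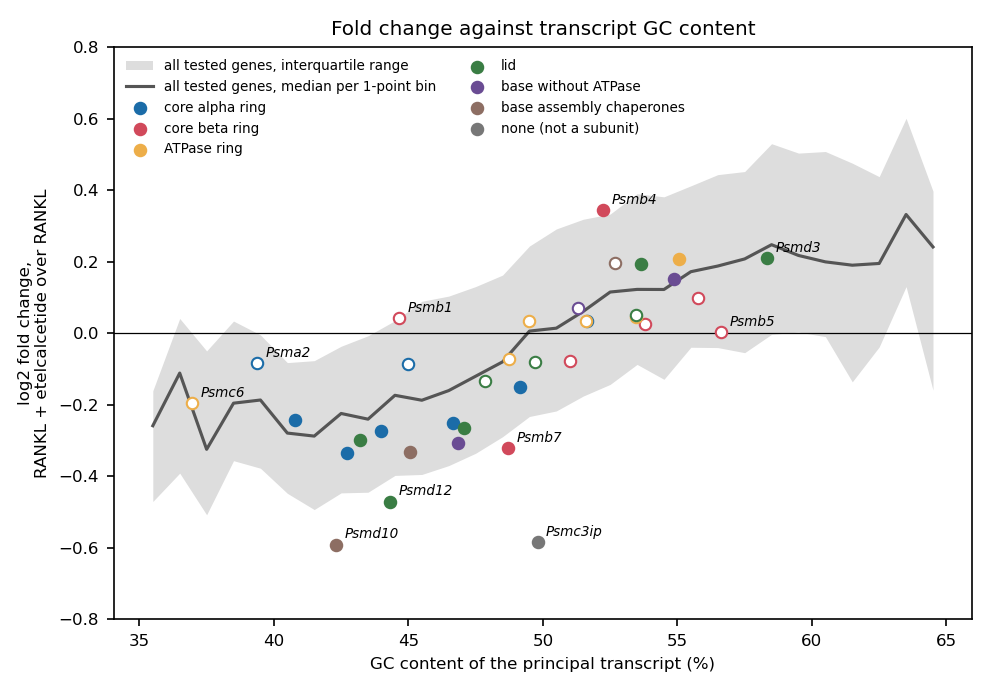
Log2 fold change, RANKL + etelcalcetide over RANKL, against the GC content of the principal transcript for the 36 tested genes (points, filled where the adjusted p is under 0.05) and for all tested genes (line, median per 1-point bin, with the interquartile range shaded). Over the 36 genes the log2 fold change rises with GC content (rho 0.75). Psmd12, Psmd10 and Psmc3ip lie below the shaded range, Psmb7 just below it, Psmb4 just above it and Psmb1 at its upper edge.

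Libraries of the same group also differed in this respect. The slope of a gene's deviation from its mean over the 6 libraries, per 10 points of GC, was 0.11, 0.16 and 0.12 on the log2 scale in etelcalcetide replicates 1, 2 and 3 and -0.25, -0.13 and -0.0028 in RANKL replicates 1, 2 and 3, over all tested genes. Between RANKL replicates 3 and 1 (3 over 1), which had no drug, the 36 genes differed by -0.38 to 0.37 on the log2 scale, and these differences had a rho of 0.73 with GC content. This is the pair with the highest rho of the 6 pairs within groups, and its labelled exposures were 7 and 5 days. For the other RANKL pairs rho was 0.58 (3 over 2) and 0.43 (2 over 1). For the etelcalcetide pairs it was 0.53 (2 over 1), 0.09 (3 over 1) and -0.42 (3 over 2), with differences of the 36 genes between -0.29 and 0.12. What set the slopes was not tested.

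When a smooth trend on GC content was taken out of each library, an adjustment added after seeing the data that also removes any change by the drug that follows GC, 9 genes were lower and 2 higher of the 36, against 26% lower and 24.9% higher over all tested genes. Of the 18 calls 9 kept their direction and passed, 8 lower and 1 higher, and 9 were lost. The alpha ring kept 2 of its 5 falls: Psma6 (log2 fold change -0.13, adjusted p = 0.0189) and Psma5 (-0.12, 0.0485), whereas Psma1 (-0.07, adjusted p = 0.246), Psma8 (-0.11, 0.177) and Psma3 (0.0043, 0.958) did not pass. The falls of Psmd14 (-0.08, adjusted p = 0.169) and Psmd5 (-0.16, 0.123) were lost as well. Psmd10 (-0.36, adjusted p = 0.00205), Psmd12 (-0.28, 0.00514), Psmb7 (-0.27, 0.00314), Psmd1 (-0.19, 0.0262), Psmd6 (-0.15, 0.0415) and Psmc3ip (-0.58, 0.000286) stayed lower, and Psmb4 (0.26, 0.00506) stayed higher. The rises of Psmc3, Psmd3, Psmd8 and Psmd4 were lost, with log2 fold changes of 0.05, -0.0025, 0.07 and 0.0011. Psmb5 was lower (-0.18, adjusted p = 0.0362) and Psmb1, a structural beta subunit, was higher (0.23, adjusted p = 0.0320) only in this fit.

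**Figure D5:**
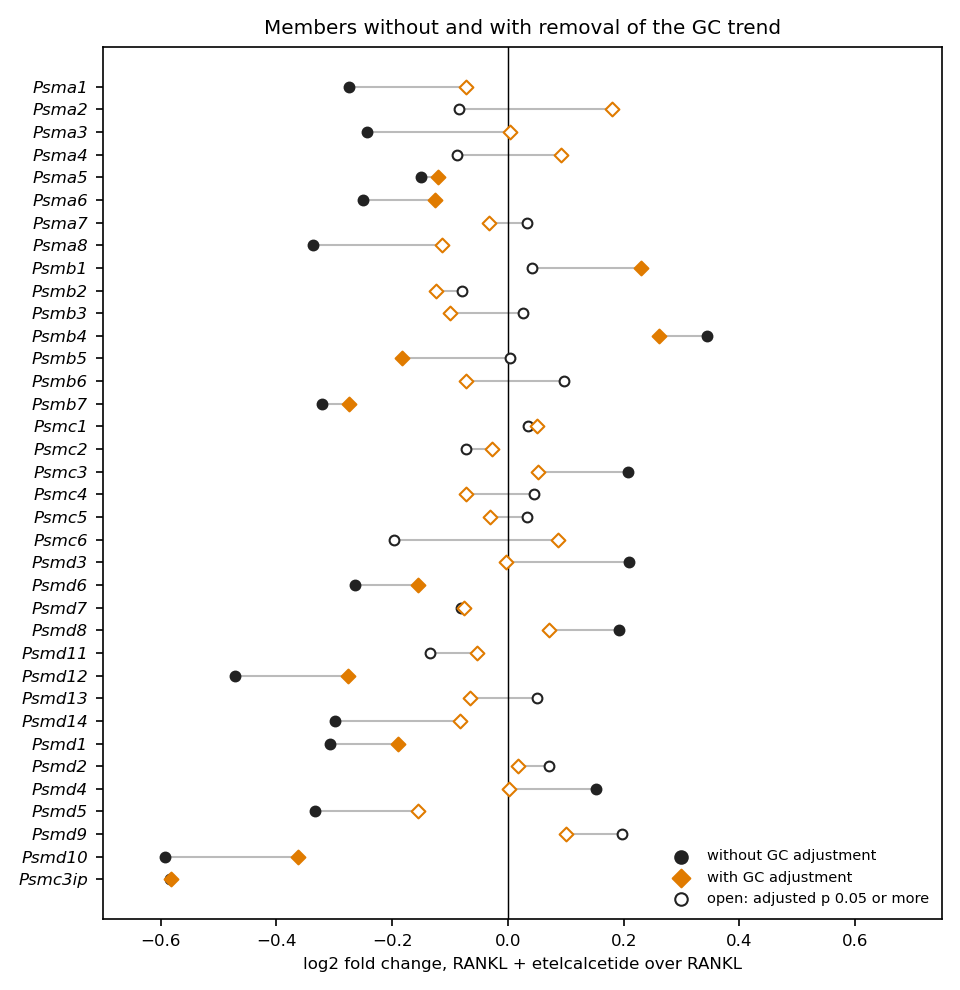
Log2 fold change of the 36 tested genes, RANKL + etelcalcetide over RANKL, without (circles) and with (diamonds) removal of the GC trend of each library, filled where the adjusted p is under 0.05. Psmc3ip stays at -0.58, Psmd10 moves to -0.36 and Psma3 to 0.0043.

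Over the 14 alternatives run (scaling, filter, pseudocount, prior variance, replicate block, each library left out, and the GC adjustment), 8 of the 18 calls passed every time: Psma6, Psmb7, Psmd6, Psmd12, Psmd1, Psmd10 and Psmc3ip lower, and Psmb4 higher.

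The rest of the pathway was read from 8 lists with 41 genes, all of them tested. Of the 41, 12 fell (29.3%), 13 rose (31.7%) and 16 did not pass the test, near the 27% and 26% of all tested genes. The partners of the immunosubunits rose: Psme1 had 80.4, 77.6 and 75.3 scaled FPKM with etelcalcetide, against 44.1, 48.6 and 45.9 with RANKL alone (log2 fold change 0.75, adjusted p = 9.24e-06). Psme2, which forms the interferon-induced activator cap with it, had 91.8, 94.8 and 93.3 scaled FPKM, against 42.1, 44.03 and 53.4 (log2 fold change 1.01, adjusted p = 1.99e-05), and copies of the genes in these lists were not searched for. The inhibitor Psmf1 rose as well (0.30, adjusted p = 0.0136), so 3 of the 5 activator and inhibitor genes rose and 0 fell. The Psmf1 call was lost without etelcalcetide replicate 2 (adjusted p = 0.0655), which leaves 2 of 5.

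Chaperones that build the core went both ways, with 2 of 5 lower and 2 higher. These shares of 40% each stand against 27% lower and 26% higher over all tested genes. Psmg2 fell by 0.39 on the log2 scale (adjusted p = 0.00131) and Psmg4 rose by 0.41 (adjusted p = 0.000628). Pomp, the maturation factor of the beta ring, had 23.4, 21.96 and 21.03 scaled FPKM with etelcalcetide, against 19.2, 19.5 and 19.9 with RANKL alone (log2 fold change 0.18, adjusted p = 0.0294), a call lost in 4 of the 6 fits that left out a library.

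Of 7 further subunits and associated factors of the regulatory particle 4 fell and 0 rose. The share that fell was 57.1%, against 27% lower and 26% higher over all tested genes. The symbol rule leaves these further subunits out, so the class counts above do not cover them. After the GC adjustment 2 were lower and 2 higher, the 2 higher ones being Sem1 (0.27, adjusted p = 0.0419) and Ube3c (0.19, adjusted p = 0.0163), named after their values were seen, so the direction of the group depends on that step. The deubiquitinases Usp14 and Uchl5 had log2 fold changes of -0.44 (adjusted p = 0.000454) and -0.46 (adjusted p = 0.000765), and the proteasome-bound thioredoxin Txnl1 had -0.48 (adjusted p = 0.000207). All 3 have transcripts of 39.2% to 40.6% GC, and after the GC adjustment Uchl5 alone of them passed (adjusted p = 0.0160). Among the shuttle receptors, which carry ubiquitin-tagged proteins to the particle, Rad23b had 63.5, 55.8 and 59.8 scaled FPKM with etelcalcetide, against 112, 118 and 109 with RANKL alone. Its log2 fold change of -0.92 (adjusted p = 5.82e-06) was -0.79 after the GC adjustment (adjusted p = 6.31e-06). Ddi2, a shuttle and the protease that activates NFE2L1, had -0.21 (adjusted p = 0.0456), a call lost in 5 of the 6 fits that left out a library.

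The ubiquitin gene Ubb rose, with a log2 fold change of 0.37 (adjusted p = 0.00126). Of the regulators of proteasome genes, Nfe2l1 had 48.1, 45.7 and 44.3 scaled FPKM with etelcalcetide, against 36.3, 39.6 and 40.2 with RANKL alone. It rose by 0.25 on the log2 scale (adjusted p = 0.00650), and by 0.11 after the GC adjustment (adjusted p = 0.0753). Nfe2l2 rose by 0.16 (adjusted p = 0.0368), a call lost in 4 of the 6 fits that left out a library. Zfand2a and Zfand5, stress-linked proteins that bind the regulatory particle, fell by 0.77 (adjusted p = 0.000190) and 0.51 (adjusted p = 0.000441) on the log2 scale. After the GC adjustment Zfand2a stood at -0.83 (adjusted p = 9.8e-05) and Zfand5 at -0.25 (adjusted p = 0.0160). The segregase Vcp, which pulls tagged proteins out of complexes, fell by 0.15 (adjusted p = 0.0158). That call was lost without etelcalcetide replicate 3 (adjusted p = 0.0533) and with library totals as the only scaling (log2 fold change -0.08, adjusted p = 0.194). Its cofactor Faf1 fell by 0.43 (adjusted p = 0.000293). Its cofactor Nploc4 rose by 0.25 (adjusted p = 0.00924), and by 0.14 after the GC adjustment (adjusted p = 0.0390).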

How the data were processed

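Sample titles gave the groups and the replicate numbers. For each library the authors deposited FPKM values of 55536 Ensembl IDs. HISAT2 2.1.0, Trimmomatic 0.38, featureCounts 1.6.0 and DESeq2 1.22.1 are named, with no role, in the submitters' processing notes. These also name the build GRCh38, but all 55536 IDs matched mouse GENCODE M21, which gave lengths and GC content. Strandedness of the libraries is not stated in the sources used here.

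FPKM multiplied by merged exon length gave whole reads for 100% of values within 0.01 reads. Long rare isoforms lengthen the merged exons and so lower a gene's FPKM. At these depths 1 read on 1 kb was worth 0.0615 to 0.0728 FPKM. Within a group, replicates differed by more than sampling noise (mean chi-square of 5.38 to 29.0 per gene, median of 1.08 to 2.67). The pair with the highest mean, etelcalcetide replicates 2 and 3, had the lowest median, so that mean rests on few genes. Limits from read counts cover counting error only.

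TMM factors (0.967 to 1.04, trimming 30% of M and 5% of A values) scaled the FPKM, a pseudocount of 0.1 FPKM followed, and limma fitted the log2 values (limma 3.58.1, R 4.3.3, mean-dependent prior variance, group as the only term). The pseudocount understates changes of low genes. Tested genes had 0.5 FPKM and 10 reads in at least 3 libraries. The GC adjustment subtracted a lowess curve (span 0.5) of each library's deviations on the principal transcript's GC content. Near-identical copies (98% identity over 100 bases) were found for Psma3, Psma5 and Psmb5, with at most 1.22% of the member's reads. A planned comparison of protein sequences was not run.

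Values are given by library for the 3 genes with the largest change in each class, genes called against their class, Psmb5, Psmb6 and Psmb7, untested genes, and up to 3 called genes plus key genes of each other list; Psma7 was added for Psma8. The genes and lists were chosen with earlier results of these data known. Some genes of the lists are not reported here.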

Additional observations from a re-analysis of the deposited data

How the results depend on the processing

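Of the 36 tested genes, 9 to 13 fell over the alternatives and 13 did so in the fit reported. With library totals as the only scaling, which moved the median log2 fold change of all genes to 0.07 and that of the proteasome genes to -0.00084, 8 rose and 11 fell, 3 alpha genes fell, 2 beta genes, 2 base genes without ATPase activity and 1 base chaperone rose, and Psmc2 stood at 0.0071. Of all tested genes 32% then rose and 20.4% fell. With no filter on low values 3 alpha genes fell. With a constant prior variance 1 lid gene, 0 base genes without ATPase activity and 1 base chaperone rose. After the GC adjustment 2 genes rose in all, 2 alpha genes, 2 beta genes and 1 chaperone fell, 2 beta genes rose, and 0 ATPase, lid and non-ATPase base genes rose; 12 of the 36 tested genes changed sign, among them Psmb5 (-0.18), Psmb6 (-0.0732), Psmc6 (0.0874) and Psmd3 (-0.0025). With median-of-ratios scaling Psmb5 stood at -0.0043. The causes of these changes were not tested.

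Leaving out 1 library gave 11 to 13 falling and 1 to 6 rising genes, with 3 to 5 falling alpha genes, 1 to 2 rising beta genes, 0 to 1 rising ATPase genes, 0 to 2 rising lid genes and 0 to 1 rising base genes without ATPase activity. Only 1 gene rose without etelcalcetide replicate 2 and 2 without etelcalcetide replicate 1. Psmb5 ran between -0.0703 and 0.115 over these fits. The log2 differences of the 3 subunit ratios ran between 0.78 and 1.55.

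Libraries with the same replicate number did not deviate together (correlations 0.07, -0.02 and -0.03), and not every library correlated best with its own number, so the numbers were not read as pairs. With the replicate block 13 genes fell and 5 rose, and 1 ATPase gene, Psmc6, passed the test as lower (adjusted p = 0.0428) while Psma5 did not pass (0.0700). Of the other named genes the block ended the calls of Pomp (0.0553), Ddi2 (0.0610) and Nfe2l2 (0.0677). The sample labels give same-numbered libraries the same exposure, against the design text. At 3 against 3 libraries the permutation test cannot go below 0.1.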

Other observations

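Levels depend on which length divides the reads. Per kilobase of the principal transcript, on the scale of FPKM, Psmb5 stood at 79.3 with etelcalcetide and 79.7 with RANKL alone, and Psmb7 at 75.3 with etelcalcetide and 94.1 with RANKL alone. Per kilobase of merged exon, the unit of the deposited values, Psmb7 averaged 25.5 with etelcalcetide and 31.9 with RANKL alone, well under Psmb5. With RANKL alone the order of Psmb5 and Psmb7 by level therefore turns on the length used, whereas with etelcalcetide Psmb5 was higher by either length. The fold change between the groups uses the same length on both sides.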
